A study of Mus musculus with 12 samples.

Results

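The E2F and retinoblastoma family holds the E2F transcription factors and the pocket proteins that bind them. The 10 members E2f1 to E2f8, Rb1 and Rbl1 were taken by their mouse Entrez gene from the 27179 genes of the count table, and all 10 passed the filter on low counts. RNA-Seq was performed on splenic B cells of male mice aged 6 to 12 weeks, labelled C57BL/6 (C57BL/6 Pep3b in the methods), at 6 stages, with 2 biological replicates of each. Naive B cells were sorted without treatment as TCRβ- B220+ cells that were also IgM+ and IgDhi. Activated cells were cultured with 25 µg/ml lipopolysaccharide (LPS), a bacterial ligand of Toll-like receptor signalling, and sorted at 3 h, 10 h and 33 h as undivided CD69+ cells with the highest CellTrace Violet label, the last of these being the stage of imminent division. Day 4 of LPS culture gave both the expanded B cells, which kept CD22 and lacked CD138, and the plasmablasts, sorted by the opposite pattern. Cells for culture were first isolated by negative selection, and the day 4 cultures were set up at a lower density than the earlier ones. Neither difference can be told apart from stage. Total counts ranged from 23026619 at 3 h to 60585587 at 33 h, with a median of 37839944.5 over the 12 libraries.

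E2Fs bind DNA upstream of genes for DNA replication and cell division, mostly as partners of a DP protein. In resting cells the pocket proteins Rb1, Rbl1 and Rbl2 hold E2Fs in repressing complexes, and cyclin-dependent kinases release them by phosphorylating the pocket proteins as a cell leaves quiescence. Lymphocytes are a classic setting of this switch, since a resting B cell enters rapid division after activation.

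The stage labels were checked against marker genes, in CPM (counts relative to the library total, on one common scale). The B cell markers Cd79a and Cd79b, which encode the signalling chains of the B cell receptor, ranged from 604 to 2969 CPM and from 628 to 2291 CPM over the 12 libraries. Other B cell markers fell further: Ms4a1 was at 1687 and 1883 CPM in naive cells and 408 and 389 CPM in plasmablasts, and Pax5 at 435 and 402 CPM and then 6.66 and 5.57 CPM. Cd22, whose protein was a sort marker on day 4, was at 1576 and 1540 CPM when naive, 128 and 139 CPM by 3 h, 418 and 393 CPM in expanded cells and 1.36 and 1.14 CPM in plasmablasts. The 5 plasmablast markers summed to 16909 and 16396 CPM in plasmablasts, led by Jchain, and to at most 2684 CPM in any other library. Irf4, on the same list, did not follow the sum: it was at 2588 and 1952 CPM at 3 h, above its level in plasmablasts. The 6 T cell markers stayed at or below 7.75 CPM. Naive libraries also held transcripts on the marker lists of other blood cells. The 7 myeloid markers summed to 275 and 121 CPM in naive replicates 1 and 2, with none at 0 and Lyz2 the most abundant at 131 and 54.9 CPM, and to at most 37.5 CPM in any later library. Not all of the list followed the sum: Itgam was at 8.74 and 5.08 CPM in naive cells, 17.9 and 13.5 CPM at 33 h and 24.3 and 21.8 CPM in expanded cells, and Adgre1 at 10.7 and 10.6 CPM in naive cells and 13.1 and 13.4 CPM in expanded cells. The 5 erythroid markers in the table summed to 191 and 142 CPM in naive cells, with 0 and 1 of them at 0 and Hba-a1 the most abundant at 88.0 and 64.7 CPM, and to at most 1.88 CPM later. Mitochondrial genes held 10.28% and 11.55% of total counts in naive cells and at most 8.47% in any later library (3 h replicate 2). The part of all these transcripts in the comparisons with naive cells was not tested. In bulk RNA, fewer cells that express a gene and less of its RNA per cell cannot be told apart.

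Promoters of all members with an entry were read from RefSeq (GRCm38.p6), as 300 bases from 250 before to 50 after a start. Of the 10 members, 7 had at least 1 entry, and E2f4, E2f5 and Rb1 had none. The E2F motif was searched on both strands as TTTCCCGC, TTTCGCGC, TTTGCCGC or TTTGGCGC. It was present in 744 of all 32851 promoters (2.27%), in 497 of the 12567 promoters of tested genes (3.96%) and in 4 of the 9 promoters of the members. The 4 promoters with a match and that of E2f8, the member with the widest range of levels, are shown with the matched letters in capitals.
E2f2 (chr4:136172024-136172323, plus strand): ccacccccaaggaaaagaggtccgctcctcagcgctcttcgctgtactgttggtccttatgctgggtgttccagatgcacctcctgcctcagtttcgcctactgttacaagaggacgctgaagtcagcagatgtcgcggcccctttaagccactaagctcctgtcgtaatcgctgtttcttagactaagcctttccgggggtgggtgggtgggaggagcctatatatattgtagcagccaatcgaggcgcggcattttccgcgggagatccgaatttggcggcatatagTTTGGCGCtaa
E2f3 (chr13:29986014-29986313, minus strand): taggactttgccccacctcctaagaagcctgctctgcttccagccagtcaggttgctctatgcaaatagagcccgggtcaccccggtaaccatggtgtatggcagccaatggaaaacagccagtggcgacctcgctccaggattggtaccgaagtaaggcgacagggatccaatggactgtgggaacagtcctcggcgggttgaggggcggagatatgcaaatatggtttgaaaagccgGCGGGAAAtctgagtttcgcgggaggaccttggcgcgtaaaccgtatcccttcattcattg
E2f7 (chr10:110745189-110745488, plus strand): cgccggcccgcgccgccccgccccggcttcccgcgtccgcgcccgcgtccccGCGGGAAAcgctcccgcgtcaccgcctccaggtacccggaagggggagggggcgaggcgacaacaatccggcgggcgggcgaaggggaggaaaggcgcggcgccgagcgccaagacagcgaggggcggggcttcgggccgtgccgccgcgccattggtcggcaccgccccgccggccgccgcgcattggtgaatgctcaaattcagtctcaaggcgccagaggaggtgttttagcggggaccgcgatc
E2f8 (chr7:48881547-48881846, minus strand): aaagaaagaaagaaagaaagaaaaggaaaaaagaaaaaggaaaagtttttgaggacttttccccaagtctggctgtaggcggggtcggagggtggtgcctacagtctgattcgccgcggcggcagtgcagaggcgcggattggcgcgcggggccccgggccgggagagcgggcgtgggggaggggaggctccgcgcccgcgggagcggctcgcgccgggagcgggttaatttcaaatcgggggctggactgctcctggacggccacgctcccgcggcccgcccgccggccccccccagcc
Rbl1 (chr2:157204485-157204784, minus strand): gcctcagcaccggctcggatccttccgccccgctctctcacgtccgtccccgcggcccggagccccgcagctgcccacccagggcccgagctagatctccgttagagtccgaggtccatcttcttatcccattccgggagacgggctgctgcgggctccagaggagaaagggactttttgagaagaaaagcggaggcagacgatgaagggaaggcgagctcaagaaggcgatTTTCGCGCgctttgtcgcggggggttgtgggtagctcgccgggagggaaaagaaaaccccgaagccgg
Counted from the start, the leftmost base of the match lay at 39 in E2f2, at -11 in E2f3, at -198 in E2f7 and at -18 in Rbl1. The other promoters of E2f2 and E2f3 and those of E2f1, E2f6 and E2f8 did not hold these 8 letters. The last 6 letters of these motifs alone were present in 7 of the 9 promoters of members (77.8%), those of E2f6 and E2f8 and both of E2f3 included, against 36.25% of all promoters and 58.58% of promoters of tested genes. The E2f1 and E2f8 windows, and the E2f2 and E2f3 windows not shown, lay within the annotated span of the gene. The cell cycle homology region (CHR, TTTGAA or TTCGAA) was present in 19.2% of all promoters and in 3 of the 9 promoters of members, that of E2f8, the E2f3 promoter shown and the E2f2 promoter not shown. In E2f8 it lay on the minus strand with its leftmost base at -20. The CCAAT box was present in 37.4% of all promoters and in 5 of the 9 promoters of members. A match describes letters in a window and is not evidence of binding.

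Levels are given as RPKM (CPM over TMM-scaled library sizes, divided by the deposited gene length in kilobases), which allows levels of different genes to be set side by side. Changes between stages were tested with edgeR's glmTreat against a fold change of 1.5 over 12750 genes, and a gene was called differentially expressed (DE) at a Benjamini-Hochberg adjusted p under 0.05. The standard error (SE) of a log2 fold change is its absolute value divided by the square root of edgeR's quasi-likelihood F statistic. It rests on a spread estimated over all 12 libraries and is not the spread of the 2 libraries of a stage. An exact permutation test of 2 against 2 libraries cannot give a p below 0.333.

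**Figure D1:**
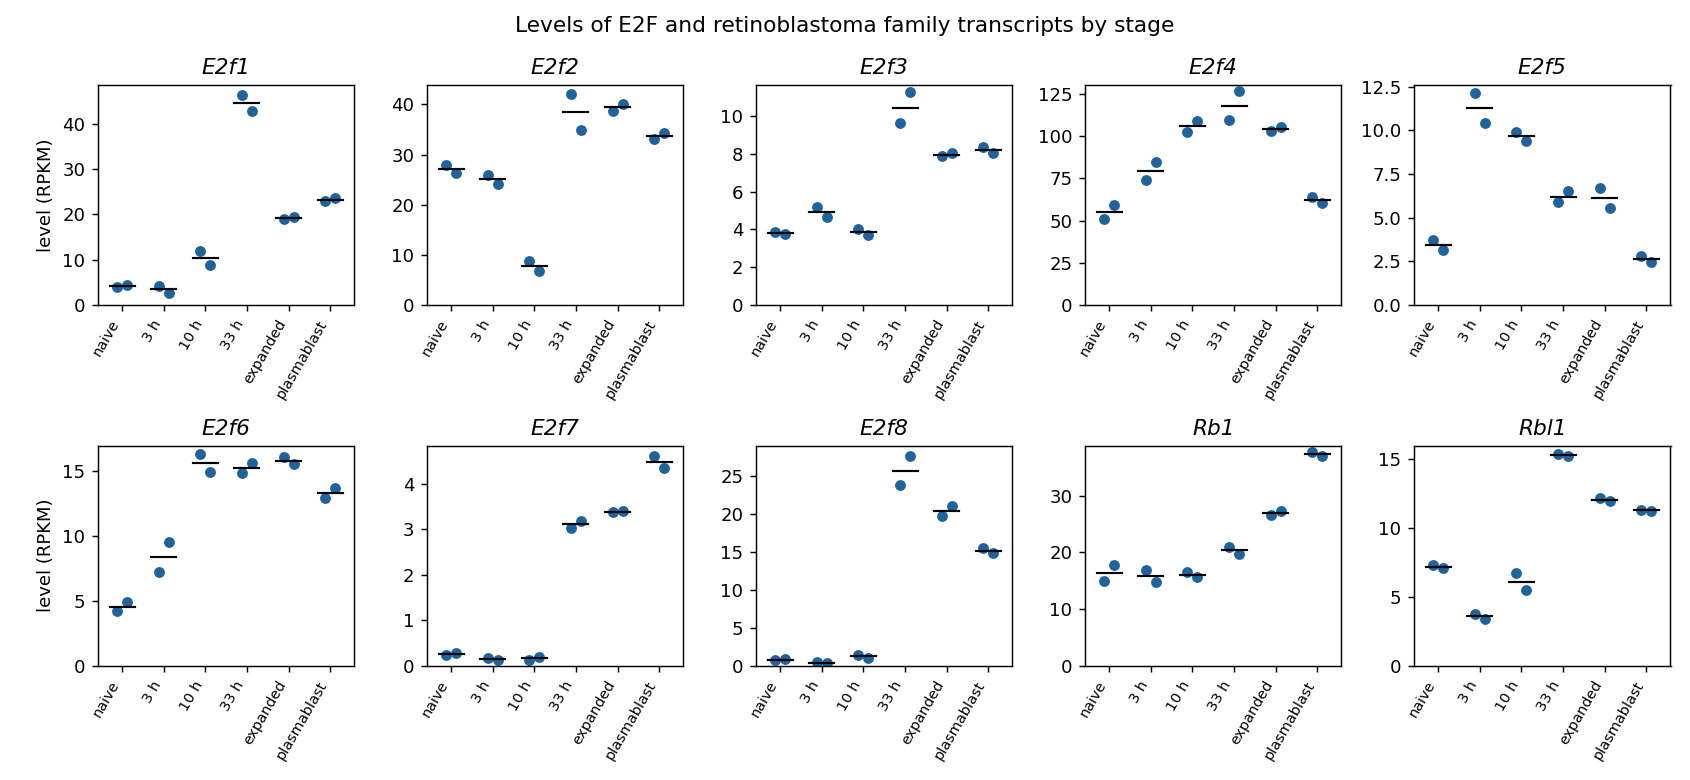
RPKM of each member (vertical axis, starting at 0 and scaled by gene) in the 6 stages, with points for the 2 libraries and a line at their mean. E2f7 and E2f8 were at most 0.283 and 1.39 RPKM in every library up to 10 h and at least 3.04 and 14.9 RPKM in every library from 33 h.

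Among the activators, which recruit coactivators and bind Rb1, E2f1 (Entrez gene 13555, chr2:154559400-154569892) was at 4.07 and 4.44 RPKM (naive), 4.12 and 2.76 RPKM (3 h), 11.98 and 8.74 RPKM (10 h), 46.4 and 42.9 RPKM (33 h), 18.9 and 19.3 RPKM (expanded) and 22.8 and 23.7 RPKM (plasmablast). Both 33 h libraries stood above all others, and only the naive and 3 h ranges overlapped. E2f1 rose from 3 h to 10 h by a log2 fold change of 1.62 ± 0.18 (SE, n = 2 a stage), with an adjusted p of 7.8e-05 by edgeR's glmTreat. It rose again from 10 h to 33 h by 2.10 ± 0.16 (adjusted p = 2.8e-06, edgeR's glmTreat) and fell by 1.22 ± 0.16 from 33 h to expanded cells (adjusted p = 0.00239, edgeR's glmTreat). E2f1 was the only member that edgeR's glmTreat called at each of the steps from 3 h to expanded cells. Necab3, which overlaps E2f1, had at most 38 counts in a library.

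E2f2 (Entrez gene 242705, chr4:136172274-136196057), an activator linked to the restraint of lymphocyte proliferation, was at 27.8 and 26.3 RPKM (naive), 25.9 and 24.2 RPKM (3 h), 8.69 and 6.73 RPKM (10 h), 42.1 and 34.9 RPKM (33 h), 38.8 and 40.0 RPKM (expanded) and 33.2 and 34.3 RPKM (plasmablast). The 10 h libraries were the lowest by a wide gap, and only the ranges at 33 h and in expanded cells overlapped among neighbours in the order of levels. From 3 h to 10 h, E2f2 fell by 1.70 ± 0.12 on the log2 scale (adjusted p = 2.18e-06, edgeR's glmTreat), while E2f1 rose over the same interval. From 10 h to 33 h it rose by 2.32 ± 0.12 (adjusted p = 6.87e-08, edgeR's glmTreat). Its level at 33 h differed from naive cells by a log2 fold change of 0.51 ± 0.12, which was not called. Of the summed RPKM of the activators, E2f2 made up 77.0% (naive), 75.1% (3 h), 35.2% (10 h), 41.0% (33 h), 59.3% (expanded) and 51.7% (plasmablast). E2f1 made up 12.1% in naive cells, 47.1% at 10 h and 47.7% at 33 h. Taken from counts without division by length, E2f1 made up 6.63% in naive cells. On that scale E2f2 exceeded E2f1 at 10 h (44.7% and 31.1%) and at 33 h (52.7% and 31.8%), a reversed order at both stages.

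E2f3 (Entrez gene 13557, chr13:29906575-29986064), the activator with the narrowest range of levels, was at 3.88 and 3.76 RPKM (naive), 5.20 and 4.66 RPKM (3 h), 4.00 and 3.69 RPKM (10 h), 9.62 and 11.3 RPKM (33 h), 7.89 and 8.03 RPKM (expanded) and 8.38 and 8.05 RPKM (plasmablast). All libraries from 33 h on lay above all earlier ones, and the naive and 10 h ranges overlapped. E2f3 rose from 10 h to 33 h by 1.44 ± 0.11 on the log2 scale (adjusted p = 7.05e-06, edgeR's glmTreat) and was not called between other consecutive stages. Gene counts do not separate the transcripts that start at its 2 promoters.

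Of the repressors, which act with Rbl1 and Rbl2, E2f4 (Entrez gene 104394, chr8:105297663-105305370) had the highest level of the 10 members at every stage. It was at 51.0 and 59.0 RPKM (naive), 74.0 and 84.8 RPKM (3 h), 103 and 109 RPKM (10 h), 109.4 and 127 RPKM (33 h), 103 and 106 RPKM (expanded) and 63.9 and 60.4 RPKM (plasmablast). Levels at 10 h and in expanded cells overlapped, and naive cells and plasmablasts were lowest. No consecutive step was called, although the log2 fold change from naive cells to 33 h was 1.10 ± 0.10 (adjusted p = 0.000112, edgeR's glmTreat). From expanded cells to plasmablasts E2f4 had a log2 fold change of -0.75 ± 0.10 with an adjusted p of 0.0744 by edgeR's glmTreat, and it was called down under 4 of the alternatives. These were no filter on low counts (-0.78), the fit of the 4 libraries compared (-0.72), library size alone (-1.09) and the F-test with no fold threshold. Library size alone moved the median log2 fold change of all genes by -0.34 at this step.

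E2f5 (Entrez gene 13559, chr3:14578602-14606309) was at 3.73 and 3.17 RPKM (naive), 12.1 and 10.4 RPKM (3 h), 9.91 and 9.40 RPKM (10 h), 5.91 and 6.51 RPKM (33 h), 6.67 and 5.56 RPKM (expanded) and 2.78 and 2.46 RPKM (plasmablast). It was highest at 3 h, and only 33 h and expanded cells overlapped among neighbours. E2f5 rose from naive cells to 3 h by 1.70 ± 0.15 on the log2 scale (adjusted p = 6.43e-06, edgeR's glmTreat) and fell by 1.23 ± 0.16 from expanded cells to plasmablasts (adjusted p = 0.00102, edgeR's glmTreat). Rbis starts at 14606289, overlaps only the last bases of the E2f5 span, and had up to 452 counts in a library. The strand setting of the counting was not given in the sources used here, so the E2f5 signal within this short overlap is uncertain.

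E2f6 (Entrez gene 50496, chr12:16810909-16826752), which binds no pocket protein and belongs to a variant Polycomb complex, PRC1.6, was at 4.22 and 4.91 RPKM (naive), 7.26 and 9.52 RPKM (3 h), 16.4 and 14.9 RPKM (10 h), 14.9 and 15.6 RPKM (33 h), 16.1 and 15.5 RPKM (expanded) and 12.96 and 13.7 RPKM (plasmablast). It climbed up to 10 h, after which the ranges at 10 h, 33 h and in expanded cells overlapped. The step from naive cells to 3 h was 0.89 ± 0.13 on the log2 scale (adjusted p = 0.013, edgeR's glmTreat), and that from 3 h to 10 h was also 0.89 ± 0.13 (adjusted p = 0.0159, edgeR's glmTreat). The first call was lost without naive replicate 1 (0.78) or 3 h replicate 2 (0.65), and the other without 3 h replicate 1 (0.72) or 10 h replicate 1 (0.82). Neither was called by DESeq2 (0.88 and 0.81) or in fits of the 4 libraries compared (0.86 and 0.89), and the first was not called with library size alone (0.69). The net log2 fold change from naive cells to 33 h was 1.74 ± 0.13 (adjusted p = 1.42e-06, edgeR's glmTreat).

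The atypical members bind DNA without a DP partner and repress E2F target genes. E2f7 (Entrez gene 52679, chr10:110745439-110787384) was at 0.243 and 0.283 RPKM (naive), 0.163 and 0.126 RPKM (3 h), 0.133 and 0.193 RPKM (10 h), 3.04 and 3.19 RPKM (33 h), 3.38 and 3.40 RPKM (expanded) and 4.62 and 4.36 RPKM (plasmablast). The early values rest on 16 to 45 counts a library. The naive and 3 h ranges did not overlap, and the log2 fold change between them of -0.89 ± 0.25 was not called, but was called with library size alone (-1.09) and by the F-test with no fold threshold. E2f7 rose from 10 h to 33 h by 4.27 ± 0.18 on the log2 scale (adjusted p = 4.36e-09, edgeR's glmTreat). Its step from expanded cells to plasmablasts (0.40) was not called, and without TMM scaling the levels of those stages overlapped, at 17.7 and 17.6 CPM and at 18.5 and 17.1 CPM. E2f8 (Entrez gene 108961, chr7:48866429-48882073) was at 0.776 and 0.840 RPKM (naive), 0.483 and 0.347 RPKM (3 h), 1.39 and 1.09 RPKM (10 h), 23.8 and 27.7 RPKM (33 h), 19.8 and 21.1 RPKM (expanded) and 15.5 and 14.9 RPKM (plasmablast). No neighbouring ranges of E2f8 overlapped, and its highest stage mean was 62.1 times its lowest. E2f8 fell by 1.003 ± 0.21 from naive cells to 3 h (adjusted p = 0.0225, edgeR's glmTreat), a call lost without naive replicate 2 (-0.95) or 3 h replicate 2 (-0.76), by DESeq2 (-1.02) and in the fit of the 4 libraries compared (-1.01). It rose by 1.63 ± 0.19 from 3 h to 10 h (adjusted p = 0.000143, edgeR's glmTreat) and by 4.37 ± 0.15 from 10 h to 33 h (adjusted p = 9.23e-10, edgeR's glmTreat).

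Rb1 (Entrez gene 19645, chr14:73192858-73325951), the retinoblastoma protein, was at 15.015 and 17.8 RPKM (naive), 16.8 and 14.9 RPKM (3 h), 16.5 and 15.6 RPKM (10 h), 21.0 and 19.7 RPKM (33 h), 26.6 and 27.4 RPKM (expanded) and 37.7 and 37.0 RPKM (plasmablast). The 3 earliest stages overlapped, and the later stages were ordered with no overlap. No consecutive step was called, while the log2 fold change from naive cells to plasmablasts was 1.19 ± 0.10 (adjusted p = 1.46e-05, edgeR's glmTreat). Lpar6 lies within Rb1 and had up to 467 counts in a library.

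Rbl1 (Entrez gene 19650, chr2:157145893-157204534), which encodes p107, was at 7.29 and 7.12 RPKM (naive), 3.79 and 3.41 RPKM (3 h), 6.72 and 5.53 RPKM (10 h), 15.4 and 15.2 RPKM (33 h), 12.2 and 11.9 RPKM (expanded) and 11.3 and 11.3 RPKM (plasmablast). No neighbouring ranges overlapped. Rbl1 fell by 1.005 ± 0.11 on the log2 scale from naive cells to 3 h (adjusted p = 0.000663, edgeR's glmTreat). The step from 3 h to 10 h of 0.77 ± 0.11 lay at the threshold (adjusted p = 0.0495, edgeR's glmTreat), and its call was lost without 3 h replicate 2 (0.71) or 10 h replicate 1 (0.62), by DESeq2 (0.70), with DESeq2's size factors in edgeR (0.69), with no filter on low counts (0.79), in the fit of the 4 libraries compared (0.76) and with the crossed replicate block (0.77). From 10 h to 33 h Rbl1 rose by 1.32 ± 0.10 (adjusted p = 1.83e-05, edgeR's glmTreat).

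The third pocket protein Rbl2 (p130), known for its abundance in quiescent cells, was at 26.8 and 24.7 RPKM (naive), 7.81 and 5.38 RPKM (3 h), 13.04 and 13.2 RPKM (10 h), 10.98 and 9.02 RPKM (33 h), 12.9 and 13.4 RPKM (expanded) and 12.3 and 14.3 RPKM (plasmablast). Rbl2 fell by 1.98 ± 0.16 on the log2 scale from naive cells to 3 h (adjusted p = 1.09e-06, edgeR's glmTreat). It was called up from 3 h to 10 h at 0.99996 ± 0.15 (adjusted p = 0.00878, edgeR's glmTreat), a call lost by DESeq2 (0.92) and without 3 h replicate 2 (0.76). Its share of the summed RPKM of Rb1, Rbl1 and Rbl2 was 52.2% (naive), 25.1% (3 h), 37.2% (10 h), 21.8% (33 h), 25.2% (expanded) and 21.5% (plasmablast). Rb1 held 33.2% (naive), 61.0% (3 h), 45.5% (10 h), 44.6% (33 h), 51.7% (expanded) and 60.3% (plasmablast) of that sum, and Rbl1 had its largest share, 33.6%, at 33 h. The DP partner Tfdp1 was at 9.31 and 7.75 RPKM (naive), 18.6 and 27.6 RPKM (3 h), 50.6 and 42.8 RPKM (10 h), 89.7 and 104 RPKM (33 h), 94.0 and 93.2 RPKM (expanded) and 48.6 and 46.3 RPKM (plasmablast). It was called up at each step to 33 h and fell by 0.98 ± 0.16 from expanded cells to plasmablasts (adjusted p = 0.0139, edgeR's glmTreat), a call lost without plasmablast replicate 1 (-0.99) or 2 (-0.92) and by DESeq2 (-0.95). Its calls from 3 h to 10 h (1.01) and from 10 h to 33 h (1.05) were lost without 3 h replicate 1 (0.76) or 10 h replicate 1 (0.89), and without 10 h replicate 2 (0.94) or 33 h replicate 2 (0.95). The former was also lost by DESeq2 (0.94) and in the fit of the 4 libraries compared (1.01). Tfdp2 stayed between 1.25 and 3.68 RPKM, and its fall from naive cells to 3 h (-1.01 ± 0.20) was not called without naive replicate 1 (-0.88) or 3 h replicate 2 (-0.67), by DESeq2 (-1.01) or in the fit of the 4 libraries compared (-1.03).

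**Figure D2:**
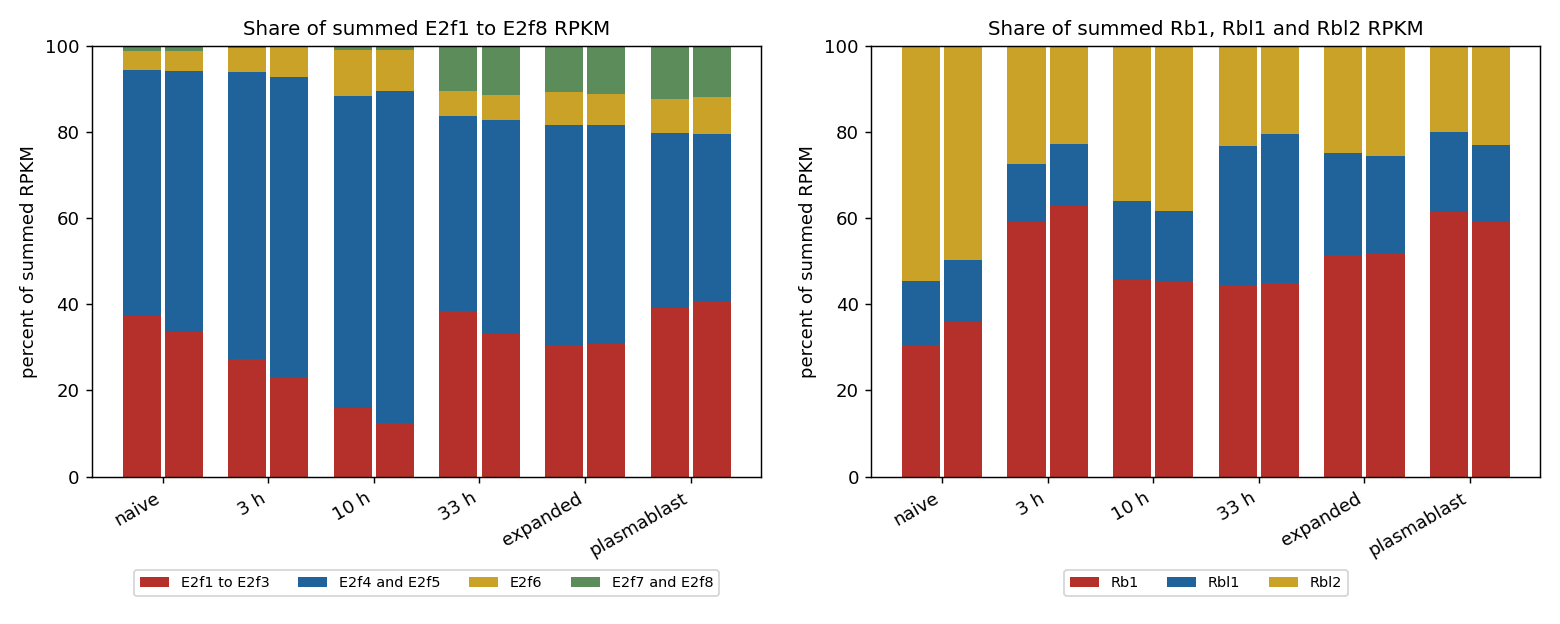
Percent of summed RPKM in each library, 2 bars a stage, for the E2F classes (left) and the pocket proteins (right). The repressors held 74.8% of E2F RPKM at 10 h and 39.7% in plasmablasts, and Rbl2 held 52.2% of pocket protein RPKM in naive cells.

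Within a library, shares do not depend on the scaling between libraries. Of the summed E2F RPKM, the activators held 35.5% (naive), 25.2% (3 h), 14.2% (10 h), 35.8% (33 h), 30.7% (expanded) and 40.0% (plasmablast). The repressors held 58.9%, 68.1%, 74.8%, 47.4%, 51.0% and 39.7% at the same stages. The atypical members rose from 0.906% at 10 h to 11.015% at 33 h and held 12.1% in plasmablasts, and E2f6 reached 10.1% at 10 h. Repressors took their largest share at 10 h, the stage at which activators took their smallest. Taken from counts without division by length, the activators exceeded the repressors in naive cells (54.6% and 39.9%), at 33 h (46.6% and 33.2%) and in expanded cells (43.8% and 34.9%), a reversed order at each of these stages. The summed E2F RPKM was 155 and 154 at 10 h and 255 and 269 at 33 h.

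**Figure D3:**
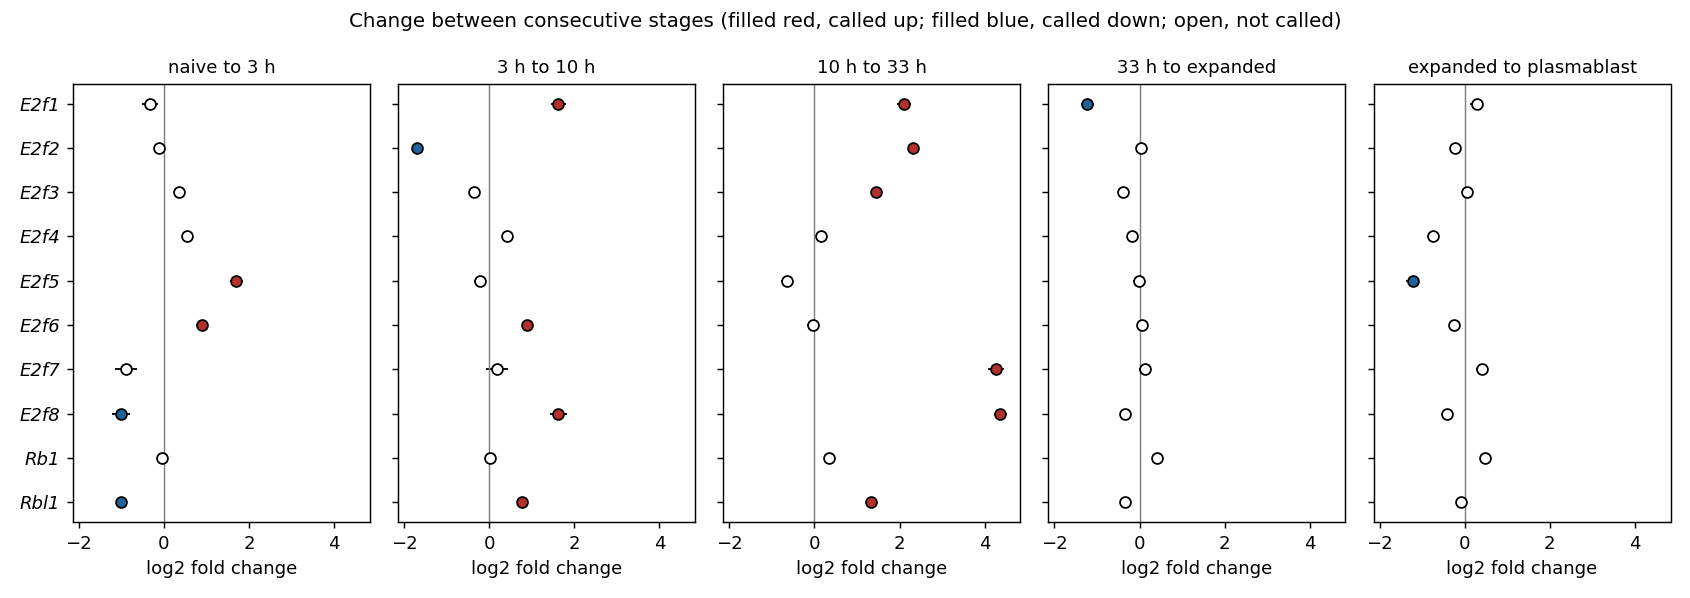
Log2 fold change of each member between consecutive stages with its SE (bars), filled where edgeR's glmTreat called it. Calls are most frequent from 10 h to 33 h, where 6 of 10 members were up.

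Read by comparison, 2 members rose from naive cells to 3 h (E2f5 and E2f6), against 21.0% of tested genes called up, and 2 fell (E2f8 and Rbl1), against 24.3% called down, so that the counts lay near the background. Without 3 h replicate 2 the total was 2, DESeq2 called 1 up and 1 down, and with library size alone the total of 4 held E2f7 in place of E2f6. Between 3 h and 10 h, 4 rose (E2f1, E2f6, E2f8 and Rbl1), against 17.4% up, and 1 fell (E2f2), against 13.4% down, with a total of 3 without 10 h replicate 1, and DESeq2 called 2 up and 1 down. The step from 10 h to 33 h had 6 members up (E2f1, E2f2, E2f3, E2f7, E2f8 and Rbl1), against 10.1% up, and 0 down, against 4.45% down. The median log2 fold change of the 10 members was 1.38 at this step, and that of all tested genes -0.02. E2f4, E2f5, E2f6 and Rb1 were not called. From 33 h to expanded cells, 0 members rose, against 6.94% up, and 1 fell (E2f1), against 3.66% down. From expanded cells to plasmablasts, 0 rose, against 13.9% up, and 1 fell (E2f5), against 12.2% down. Where edgeR's glmTreat called 0 members in a direction, 0 also passed at an unadjusted p under 0.05 and 0 were called by DESeq2, and the same holds for the lists of other genes except where given. A quasi-likelihood F-test in edgeR with no fold threshold called 5 members at each of the last 2 steps. The share of all tested genes called by that F-test is not given here, so these 2 counts have no background.

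Comparisons from naive cells share the naive libraries and are given side by side. From naive cells to 33 h, 8 members rose, against 22.3% up, and 0 fell, against 20.8% down, with E2f2 and Rb1 not called. From naive cells to plasmablasts, 6 rose (E2f1, E2f3, E2f6, E2f7, E2f8 and Rb1), against 26.6% up, and 0 fell, against 23.4% down. E2f8 had a log2 fold change of 4.997 ± 0.16 to 33 h and 4.24 ± 0.15 to plasmablasts. E2f1 had 3.39 ± 0.18 to 33 h and 2.45 ± 0.17 to plasmablasts. E2f5 had 0.84 ± 0.15 to 33 h, a call lost without naive replicate 2 (0.74) or 33 h replicate 2 (0.78), by DESeq2 (0.79), with DESeq2's size factors in edgeR (0.79) and with at least 10 counts in every library (0.79), and -0.40 ± 0.17 to plasmablasts, which was not called. Rbl2 fell by 1.36 ± 0.15 to 33 h and by 0.95 ± 0.15 to plasmablasts, the latter not called without plasmablast replicate 1 (-0.84) or by DESeq2 (-0.95).

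The G1/S list holds 32 textbook E2F target genes of DNA replication. Between 10 h and 33 h, 30 of them rose and 0 fell, against 10.1% and 4.45% of tested genes, with a median log2 fold change of 1.91. Rrm2, a subunit of ribonucleotide reductase, rose by 4.44 ± 0.24 and Clspn, a checkpoint mediator at replication forks, by 3.97 ± 0.16. The step from naive cells to 3 h was mixed, while from 3 h to 10 h most calls were up, with a median log2 fold change of 0.82. From naive cells to 3 h, 10 rose and 4 fell, against 21.0% and 24.3% of tested genes, led by Ung, a uracil glycosylase, at 2.29 ± 0.11, and Mcm5, a subunit of the replicative helicase, at 1.15 ± 0.10. The 4 down were 1 without naive replicate 1, 2 without 3 h replicate 2 and 0 by DESeq2, which called 6 up. Library size alone gave 5 up and 7 down, where 2091 of the 12750 tested genes were called up and 3716 down. Next, 16 rose and 2 fell from 3 h to 10 h, against 17.4% and 13.4% of tested genes, led by Tyms (2.80 ± 0.21) and Gins2 (2.71 ± 0.17), and 1 fell without 10 h replicate 2 or with library size alone, and DESeq2 called 14 up. From 33 h to expanded cells 0 rose and 1 fell (Pold1, -1.06 ± 0.19), against 6.94% and 3.66% of tested genes, and from expanded cells to plasmablasts 1 rose and 5 fell, against 13.9% and 12.2%, led by Pold1 (-1.08 ± 0.20) and Uhrf1 (-1.02 ± 0.13). The 1 down at the former step was 0 without any of the 4 libraries and 0 by DESeq2. At the latter step the 1 up was 0 without either expanded replicate or plasmablast replicate 1 and by DESeq2, and the 5 down were 2 without plasmablast replicate 1, 3 without plasmablast replicate 2 and 2 by DESeq2. With library size alone, which lowers the median of all genes by a log2 fold change of -0.34 here, 0 rose and 17 fell. Under that setting 1181 of the 12750 tested genes were called up and 2953 down, against 1776 and 1553 in the reported fit.

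The G2/M list holds 20 textbook genes of mitosis bound by the MuvB complex with B-Myb and FoxM1. From naive cells to 3 h, 0 rose and 8 fell, against 21.0% and 24.3% of tested genes, with a median log2 fold change of -0.95, among them Aurkb, a mitotic kinase, by -2.19 ± 0.14. Cdc25c, a phosphatase that activates the mitotic kinase, had 39 and 23 counts in naive cells and 2 and 4 counts at 3 h. The count of 8 was 3 without 3 h replicate 2. At the step from 3 h to 10 h, 13 rose and 0 fell, against 17.4% and 13.4% of tested genes, a count that was 6 without 3 h replicate 1, 3 without 3 h replicate 2 and 9 by DESeq2. All 20 rose from 10 h to 33 h, against 10.1% of tested genes, led by Plk1 (5.07 ± 0.32) and Ube2c (4.98 ± 0.35), with a median of 4.13. From 33 h to expanded cells 1 rose (Ccnb2, 1.52 ± 0.21) and 0 fell, against 6.94% and 3.66% of tested genes, a count of 10 up without 33 h replicate 2, and from expanded cells to plasmablasts none of the 20 was called by edgeR's glmTreat, against 13.9% up and 12.2% down, 1 passed at an unadjusted p under 0.05, 0 were called by DESeq2 and 4 fell with library size alone.

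**Figure D4:**
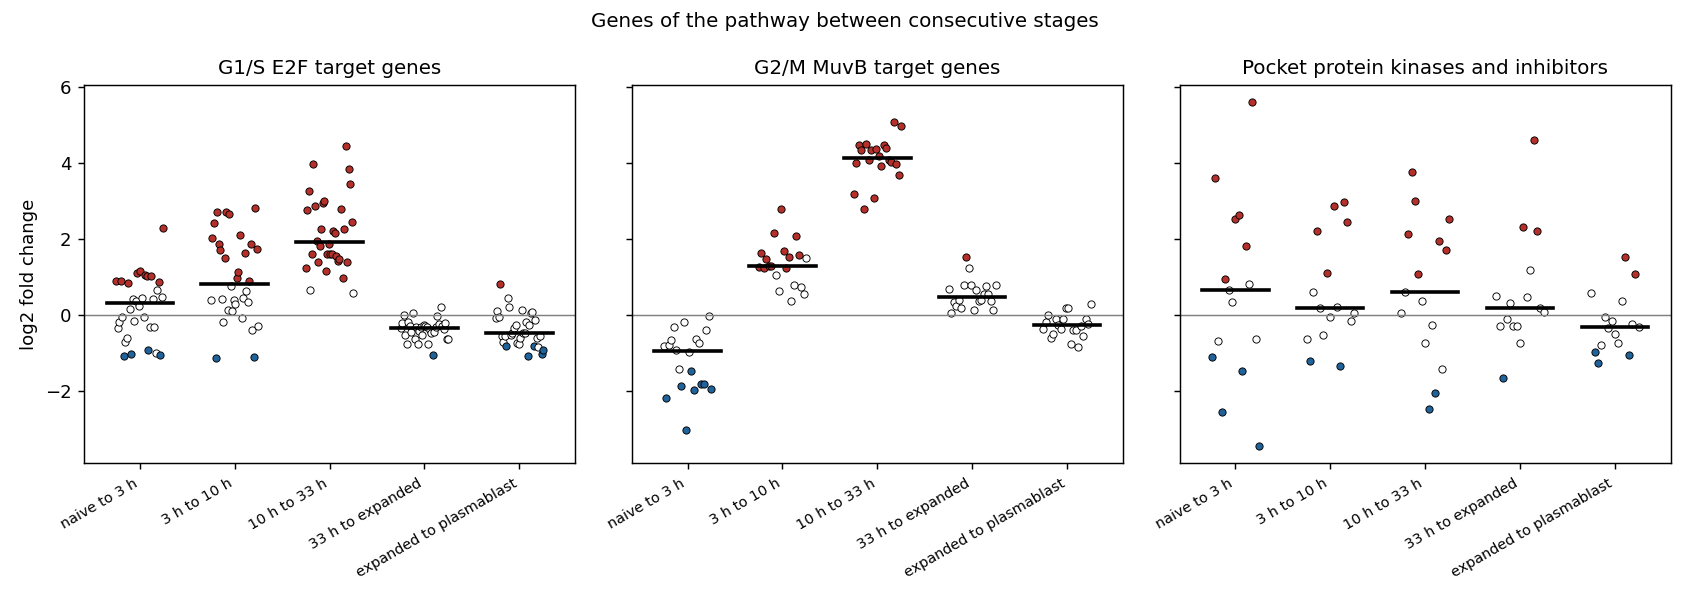
Log2 fold changes of the genes in 3 lists between consecutive stages, with filled points for calls and a line at the list median. From 10 h to 33 h, 30 of 32 G1/S genes and all 20 G2/M genes were up. The highest point of the kinase and inhibitor list from naive cells to 3 h is Cdkn2b, fitted against 1 and 0 naive counts.

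Of the 15 cyclins, kinases and inhibitors that act on pocket proteins, 6 rose and 4 fell from naive cells to 3 h, against 21.0% and 24.3% of tested genes, with 5 up and 3 down by DESeq2. Ccnd2, a D-type cyclin, rose by 3.59 ± 0.12 on the log2 scale. Cdkn2b, an inhibitor of Cdk4 and Cdk6, had 1 and 0 counts in naive cells and 10 and 39 at 3 h. Then 5 rose and 2 fell from 3 h to 10 h, against 17.4% and 13.4% of tested genes, with 1 down without 10 h replicate 1 or by DESeq2, and the inhibitor Cdkn1a rose by 2.86 ± 0.27. Cdkn2a, which encodes p16INK4a and ARF, had 1 and 2 counts at 3 h and 23 and 21 at 10 h. In the step from 10 h to 33 h, 7 rose and 2 fell, against 10.1% and 4.45% of tested genes, led by the E-type cyclins Ccne1 (3.76 ± 0.16) and Ccne2 (2.99 ± 0.17). From 33 h to expanded cells, 3 rose and 1 fell, against 6.94% and 3.66% of tested genes, led by Cdkn2a, with 92 and 86 counts at 33 h and 2027 and 1484 in expanded cells, and Cdkn1a (2.31 ± 0.26). From expanded cells to plasmablasts 2 rose and 3 fell, against 13.9% and 12.2% of tested genes, with Cdkn1c up by 1.53 ± 0.29 and Ccnd3 down (-1.26 ± 0.14), while DESeq2 called 1 up and 2 down and library size alone gave 1 up and 5 down.

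The list of 10 partners holds the DP proteins, Rbl2 and subunits of the DREAM and MuvB complexes. From naive cells to 3 h, 4 rose and 2 fell, against 21.0% and 24.3% of tested genes, and Mybl2, which encodes B-Myb, rose by 2.51 ± 0.16. Without naive replicate 1, 2 rose and 1 fell, and without 3 h replicate 2, 1 fell, while library size alone gave 2 up and DESeq2 called 3 up and 1 down. Of the same list, 2 rose and 1 fell from 3 h to 10 h, near the 17.4% and 13.4% of tested genes, with 1 up without either 3 h replicate or 10 h replicate 1 and 2 down without 3 h replicate 2. DESeq2 called 0 of these up, and library size alone 0 down. The step from 10 h to 33 h had 3 up and 0 down, against 10.1% and 4.45% of tested genes, with Foxm1 at 3.18 ± 0.12 and Mybl2 at 2.91 ± 0.14. From 33 h to expanded cells 0 rose and 1 fell (Mybl2, -1.09 ± 0.13), against 6.94% and 3.66% of tested genes. From expanded cells to plasmablasts 1 rose (Lin54, 1.03 ± 0.12) and 2 fell, against 13.9% and 12.2%, the latter a count of 0 without plasmablast replicate 1 and 1 without plasmablast replicate 2 and 0 by DESeq2, while library size alone gave 0 up. Of the 8 PRC1.6 partners of E2f6, 4 rose and 1 fell from naive cells to 3 h, against 21.0% and 24.3% of tested genes, led by Pcgf6 (2.41 ± 0.12) and Rybp (1.37 ± 0.13), and 0 fell without either naive replicate or 3 h replicate 2 and by DESeq2, which called 3 up. From 3 h to 10 h, 1 rose and 2 fell, against 17.4% and 13.4% of tested genes, among them Rnf2 (-1.30 ± 0.14), with 1 down under library size alone. None of the 8 was called by edgeR's glmTreat or DESeq2 from 10 h to 33 h, where 1 passed at an unadjusted p under 0.05 and 1 rose without 33 h replicate 1, or from 33 h to expanded cells, where 0 did. These steps had 10.1% and 6.94% of tested genes up and 4.45% and 3.66% down. From expanded cells to plasmablasts 0 rose and 1 fell (Max, -0.91 ± 0.08), against 13.9% and 12.2%, where library size alone gave 3 down. From naive cells to 33 h, 2 of the PRC1.6 partners rose and 0 fell, against 22.3% and 20.8% of tested genes. From naive cells to plasmablasts 0 rose and 5 fell, against 26.6% and 23.4%, led by Mga (-1.38 ± 0.11) and Max (-1.20 ± 0.08). DESeq2 called 3 of these down.

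Stage profiles were compared by the root mean square (RMS) difference of centred log2 CPM over the 6 stages, among 8613 genes whose average log2 CPM was 3 or higher. E2f1 was nearest to Gins1 (0.25) and Mcm7 (0.27), E2f2 to Macf1 (0.36) and Hyls1 (0.36), and E2f3 to Rfwd3 (0.15) and Polh (0.18). E2f4 was nearest to Dap3 (0.04) and Exosc3 (0.06), E2f5 to Mettl2 (0.11) and Nob1 (0.12), and E2f6 to Pkd1l3 (0.11) and Aars (0.12). The nearest genes were Nusap1 (0.21) and Kif11 (0.30) for E2f7, Clspn (0.17) and Espl1 (0.20) for E2f8, Rps6kb2 (0.07) and Msrb1 (0.10) for Rb1, and Pmf1 (0.12) and Rfc2 (0.15) for Rbl1. Among the members themselves E2f3 and Rb1 had the smallest difference (0.41) and E2f5 and E2f8 the largest (2.80), with E2f7 and E2f8 at 0.63. The SDs of these profiles were 0.62 (E2f3), 0.50 (Rb1), 2.34 (E2f7) and 2.64 (E2f8). A small difference thus partly reflects a narrow range, and pairs of members were not compared on scaled profiles. The nearest genes depend on the scale: with profiles scaled to unit SD, Dap3 for E2f4 was the only one of the 20 that ranked among the nearest 2. The E2F motif was present in 13 of the 34 promoters of the G1/S genes (38.2%) and 1 of the 17 of the G2/M genes (5.88%), and the CHR element in 5 (14.7%) and 13 (76.5%) of them. Among promoters of tested genes these shares were 3.96% for the E2F motif and 14.17% for the CHR element. The last 6 letters of the E2F motif did not separate the lists, at 85.29% (G1/S) and 82.35% (G2/M).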

How the data were processed

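RNA-Seq libraries (TruSeq, 81 bp paired-end) were aligned by the authors to mm10 with Rsubread and summarised with featureCounts over its inbuilt Entrez gene annotation, and the deposited values were raw counts per gene. Whether a read pair was counted once is not given in the sources used here. The 12 columns of the series table equalled the single-sample files. Genes without a matching Entrez ID (1904), mitochondrial (15), ribosomal RNA (33), X or Y chromosome (1279) and variable immunoglobulin (248) genes were removed. edgeR 4.0.16 in R 4.3.3 was used with filterByExpr, TMM, a one-way layout over 12 libraries, robust glmQLFit and glmTreat, which was tested on simulated data. RPKM used TMM-scaled library sizes. Alternatives included DESeq2 1.42.0. Named genes were all members, Rbl2, Tfdp1 and Tfdp2, the 2 nearest profiles per member, and the most abundant markers. List genes were named from the 2 called genes with the largest absolute log2 fold change per list and comparison, not all of which are printed. Other genes were named after their values were seen. The members and lists were chosen with earlier results of these data known. Protein sequences were not analysed here.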

Additional observations from a re-analysis of the deposited data

How the results depend on the processing

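No member, nor Rbl2, Tfdp1 or Tfdp2, called by edgeR's glmTreat in the reported fit changed direction under an alternative. Library size alone moved the median log2 fold change of all genes by -0.21 from naive to 3 h (calls up 46.3% as reported and 36%), 0.33 from 3 h to 10 h (calls up 56.5% as reported and 77.4%), -0.34 from expanded to plasmablast (calls up 53.3% as reported and 28.6%), -0.28 from naive to plasmablast (calls up 53.1% as reported and 41.3%), and differences under it are read against these shifts. Of the 12750 tested genes, library size alone called 2091 up and 3716 down from naive to 3 h. From 3 h to 10 h it called 3432 up and 1004 down. It called 1181 up and 2953 down from expanded to plasmablast, and 2730 and 3884 from naive to plasmablast. The share of tested genes called is not given here for DESeq2, fits of the 4 libraries compared or fits without a library. Counts under those settings have no background. With DESeq2's Wald test, 2 of 10 members (naive to 3 h, 4 in the reported fit), 3 of 10 members (3 h to 10 h, 5 in the reported fit) were called. With fits of the 4 libraries compared alone, 2 of 10 members (naive to 3 h, 4 in the reported fit), 3 of 10 members (3 h to 10 h, 5 in the reported fit), 2 of 10 members (expanded to plasmablast, 1 in the reported fit) were called. With edgeR's F-test with no fold threshold, 7 of 10 members (naive to 3 h, 4 in the reported fit), 5 of 10 members (33 h to expanded, 1 in the reported fit), 5 of 10 members (expanded to plasmablast, 1 in the reported fit) were called. The F-test also called 7 (3 h to 10 h), 8 (10 h to 33 h), 10 (naive to 33 h) and 9 (naive to plasmablast). Its share of all tested genes is not given here, so these counts have no background. With scaling by library size alone, 2 of 10 members (expanded to plasmablast, 1 in the reported fit) were called. With no filter on low counts, 2 of 10 members (expanded to plasmablast, 1 in the reported fit) were called. Leaving out 1 library at a time gave ranges of members called of 2 to 4 (naive to 3 h) and 3 to 5 (3 h to 10 h). Some log2 fold changes changed sign, none of them called on either side: E2f5 (3 h to 10 h) from -0.22 to 0.11 with library size alone, Rb1 (3 h to 10 h) from 0.023 to -0.054 with DESeq2's size factors in edgeR and -0.054 with DESeq2 Wald test, E2f2 (33 h to expanded) from 0.034 to -0.0038 with no filter on low counts, E2f5 (33 h to expanded) from -0.017 to 0.0065 with DESeq2's size factors in edgeR and 0.0072 with DESeq2 Wald test and 0.014 with at least 10 counts in every library and 0.018 with only the 4 libraries compared, E2f1 (expanded to plasmablast) from 0.28 to -0.056 with library size alone, E2f3 (expanded to plasmablast) from 0.046 to -0.29 with library size alone, Rbl2 (expanded to plasmablast) from 0.020 to -0.32 with library size alone and -0.014 with no filter on low counts, E2f4 (naive to plasmablast) from 0.18 to -0.11 with library size alone. Leaving out libraries also turned signs, over the ranges Rb1 -0.17 to 0.077 (naive to 3 h), E2f7 -0.076 to 0.46 (3 h to 10 h), Rb1 -0.052 to 0.12 (3 h to 10 h), Tfdp2 -0.22 to 0.57 (3 h to 10 h), E2f6 -0.10 to 0.037 (10 h to 33 h), E2f2 -0.10 to 0.18 (33 h to expanded), E2f5 -0.16 to 0.10 (33 h to expanded), Tfdp1 -0.16 to 0.056 (33 h to expanded), Tfdp2 -0.16 to 0.074 (33 h to expanded), Rbl2 -0.067 to 0.15 (expanded to plasmablast), Tfdp2 -0.22 to 0.019 (naive to plasmablast). List counts under library size alone were, from naive to 3 h, partners up 2 (reported 4), G1/S up 5 (reported 10), G1/S down 7 (reported 4), and from 3 h to 10 h, partners down 0 (reported 1), G1/S down 1 (reported 2), PRC1.6 down 1 (reported 2), and from expanded to plasmablast, partners up 0 (reported 1), kinases and inhibitors up 1 (reported 2), kinases and inhibitors down 5 (reported 3), G1/S up 0 (reported 1), G1/S down 17 (reported 5), G2/M down 4 (reported 0), PRC1.6 down 3 (reported 1). Leaving out libraries gave list counts, from naive to 3 h, of partners up 2 to 4, partners down 1 to 2, G1/S down 1 to 3, G2/M down 3 to 8, PRC1.6 down 0 to 1, and from 3 h to 10 h, of partners up 1 to 2, partners down 1 to 2, kinases and inhibitors down 1 to 2, G1/S down 1 to 2, G2/M up 3 to 12, and from 10 h to 33 h, of PRC1.6 up 0 to 1, and from 33 h to expanded, of G1/S down 0 (reported 1), G2/M up 1 to 10, and from expanded to plasmablast, of partners down 0 to 2, G1/S up 0 to 1, G1/S down 2 to 5, and from naive to plasmablast, of partners down 0 to 1, kinases and inhibitors down 1 to 2. Shares from counts without division by length were for activators 54.6% (naive), 43.1% (3 h), 23% (10 h), 46.6% (33 h), 43.8% (expanded), 51.7% (plasmablast), and for repressors 39.9% (naive), 50.3% (3 h), 64.4% (10 h), 33.2% (33 h), 34.9% (expanded), 25.6% (plasmablast), and for E2f6 3.93% (naive), 11% (10 h), 5.13% (33 h), 6.3% (expanded), 6.63% (plasmablast), and for atypical members 1.53% (naive), 0.658% (3 h), 1.54% (10 h), 15.1% (33 h), 15% (expanded), 16.1% (plasmablast), and for E2f1 of the activators 6.63% (naive), 5.52% (3 h), 31.1% (10 h), 31.8% (33 h), 17.1% (expanded), 22.1% (plasmablast), and for E2f2 of the activators 81.1% (naive), 78% (3 h), 44.7% (10 h), 52.7% (33 h), 68.1% (expanded), 61.7% (plasmablast), and for E2f3 of the activators 12.3% (naive), 16.5% (3 h), 24.2% (10 h), 15.5% (33 h), 14.8% (expanded), 16.2% (plasmablast), and for Rb1 of the pocket proteins 43.3% (10 h), 41.7% (33 h), 49% (expanded), 57.8% (plasmablast), and for Rbl1 of the pocket proteins 16.2% (naive), 15.7% (3 h), 19.3% (10 h), 36.7% (33 h), 25.7% (expanded), 20.5% (plasmablast). The last 6 letters of the E2F motif were present in 36.25% of all promoters, 58.58% of promoters of tested genes, 61.11% of genes called up, 10 h to 33 h, 85.29% of G1/S E2F targets, 82.35% of G2/M MuvB targets, and in 77.8% of the promoters of members. All 8 letters were present in 44.4% of the promoters of members. Every match of 8 letters holds the last 6, so the share for 6 letters cannot be lower. The replicate labels were coded 1 and 2. Deviations of same-numbered libraries correlated between -0.139 and 0.084 over pairs of stages. With a replicate block the members called were 4, 5, 6, 1 and 1 over the consecutive steps and 8 and 6 from naive cells to 33 h and to plasmablasts, and it changed no member's call. Crossing the numbers at 10 h, chosen after seeing the data, gave 4 members and 3941 genes called from 3 h to 10 h, against 3903 with the numbers as labelled and 3932 with no block. The newer quasi-likelihood method of edgeR, also chosen after seeing the data, gave the same counts of members at each comparison. Over the 10 members, Rbl2, Tfdp1 and Tfdp2, 1279 log2 fold changes kept their sign and side of the threshold, 42 lost a call and 27 gained one. Stage means of RPKM moved by at least the SD of their libraries in 47 cases under library size alone and 7 under DESeq2's size factors, and 19 of the nearest profiles were no longer among the nearest 2 when profiles were scaled to unit SD. Where 1 library was left, it was assumed to vary like the other groups. The causes were not tested. Early E2f7 levels rest on few counts, which limits small changes.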
